A study of Mus musculus with 100 samples.

Results

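Glucose enters a cell through transporter proteins and is split to pyruvate by glycolysis, and 9 genes of these first and last steps were described here in mouse fibroblasts and pluripotent stem cells. They were taken as a fixed list, by symbol, from the deposited RNA-seq table: the transporters Slc2a1 and Slc2a3, the hexokinases Hk1 and Hk2, the phosphofructokinases Pfkp and Pfkl, the lactate dehydrogenases Ldha and Ldhb, and the pyruvate dehydrogenase kinase Pdk1. All 9 of the 25965 genes in the table were found. Libraries had been made in triplicate from 6 groups, 18 libraries in all. Female mouse embryonic fibroblasts (MEFs) came from a single F1 embryo of an i4F-BL6 mother and a CAST father, and grew in serum medium. They carry a doxycycline-inducible Yamanaka cassette and the rtTA gene at Rosa26, which the iPSC lines share. The KSR-iPSC lines, 2 female (F KSR2, F KSR4) and 2 male (M KSR3, M KSR5), are each the progeny of 1 colony picked after doxycycline, grown without the drug on high-glucose medium with knockout serum replacement (KSR) and LIF. TX 2i ESCs are the TX1072 line, female embryonic stem cells of the same BL6 by CAST cross. They were also grown on high-glucose medium, with serum, LIF and the 2i inhibitors CHIR99021 and PD0325901. Each group is therefore 1 line or 1 embryo. Line, medium and origin cannot be told apart where groups differ in more than 1 of them. Both lines of a sex were made from 1 embryo of that sex, so sex and donor embryo cannot be told apart either. No male MEF library was part of the comparisons.

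Facilitative transporters of the Slc2a family let glucose cross the membrane down its gradient, and hexokinases trap it inside by phosphorylation. Phosphofructokinase commits the sugar to glycolysis, and lactate dehydrogenase interconverts pyruvate and lactate. Pdk1 restrains the conversion of pyruvate to acetyl-CoA in mitochondria by phosphorylating pyruvate dehydrogenase. Each step is served by paralogs that differ in affinity, regulation and tissue, and pluripotent cells are known for a high glycolytic flux. Several of these genes are textbook targets of hypoxia-inducible factors and of Myc.

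Levels are given as log2 RPM, the deposited log2 of reads per 1000000 reads, with replicates 1 to 3 in order. RPM per kb of the principal transcript is given where genes are set against each other. The totals behind the deposited RPM exceed the reads on genes in every library, by a factor that differs among libraries. Allelic levels alone are per 1000000 reads on genes. Libraries held 13183036 to 17921280 reads on genes, with a median of 15722711, and 1 read was worth a log2 value of -4.29 to -3.89. In bulk RNA fewer cells of a type and less RNA per cell cannot be told apart. Markers went with the labels: 10 pluripotency genes summed to 1.40 to 2.34 RPM in MEFs, with 6 to 7 of the 10 at 0 reads (Pou5f1, Zfp42, Dppa5a and Tdgf1 in every MEF library), and to 3909 to 8338 RPM in the 15 pluripotent libraries, where none was at 0. The 15 fibroblast genes summed to 30465 to 41772 RPM in MEFs and to 43.3 to 122 RPM in 14 of the pluripotent libraries. M KSR5 replicate 3 held 291 RPM of them, 0.829% of the MEF mean. The 6 primitive endoderm genes summed to 166 to 203 RPM in M KSR3, against 12.1 to 83 RPM in the other pluripotent libraries and up to 177 RPM in MEFs, and their part in the values of M KSR3 was not tested. Over the pluripotent libraries the 4 trophectoderm genes summed to between 4.93 RPM (F KSR2 replicate 1) and 90.7 RPM (F KSR2 replicate 3). They held 8.18 to 16 RPM in MEFs, and their part in the values was not tested either. F KSR4 replicate 2 stood apart. It was the lowest of the 15 pluripotent libraries in 26% of 13829 genes, against 13.8% for F KSR4 replicate 3 and 2.37 to 8.08% for the others. It differed from its sister libraries by 83.4 and 91.1 times the counting noise (median squared difference). F KSR4 replicates 1 and 3 differed by 62.4 times, and pairs of replicates in the other groups by 3.09 to 31.3 times. F KSR4 replicate 2 was also the lowest of the 15 for Slc2a1, Hk2, Pfkl and Ldha, and the highest for Ldhb. Results that rest on it are given with and without it, and F KSR4 without it is 2 libraries that also lay far apart.

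Promoter sequence was looked at because Slc2a1, Hk2, Ldha and Pdk1 are among the known hypoxia targets. The RefSeq table (GRCm38.p6) held 11 promoters for 8 of the 9 genes, each 300 bases from 250 before to 50 after a start site. Slc2a3 had none. In the sequences below, read 5′ to 3′ on the strand of the gene, capitals mark the hypoxia core motif, ACGTG or GCGTG, on either strand, and CACGTG is the E-box that holds it on both. The first 2 lie at chr4:119108495-119108794 (plus strand) and chr6:82774405-82774704 (minus strand), and the last 2 at chr7:46845554-46845853 and chr2:71872974-71873273 (both plus).
Slc2a1: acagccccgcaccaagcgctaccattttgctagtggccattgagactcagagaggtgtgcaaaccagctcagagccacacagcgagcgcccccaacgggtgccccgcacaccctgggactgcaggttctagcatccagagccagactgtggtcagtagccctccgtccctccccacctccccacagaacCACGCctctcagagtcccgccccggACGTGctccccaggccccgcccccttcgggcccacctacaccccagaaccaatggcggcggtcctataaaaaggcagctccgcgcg
Hk2: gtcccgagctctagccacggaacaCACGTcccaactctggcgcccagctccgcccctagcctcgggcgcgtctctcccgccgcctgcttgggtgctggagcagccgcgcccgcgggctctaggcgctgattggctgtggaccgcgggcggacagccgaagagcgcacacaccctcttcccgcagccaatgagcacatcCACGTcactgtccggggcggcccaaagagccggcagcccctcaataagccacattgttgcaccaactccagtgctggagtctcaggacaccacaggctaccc
Ldha: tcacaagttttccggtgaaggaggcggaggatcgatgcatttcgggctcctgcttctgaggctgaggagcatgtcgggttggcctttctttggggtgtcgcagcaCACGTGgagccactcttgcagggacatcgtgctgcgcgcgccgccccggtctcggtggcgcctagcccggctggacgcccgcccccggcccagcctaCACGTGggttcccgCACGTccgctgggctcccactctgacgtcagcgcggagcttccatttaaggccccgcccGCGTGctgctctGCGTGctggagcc
Pdk1: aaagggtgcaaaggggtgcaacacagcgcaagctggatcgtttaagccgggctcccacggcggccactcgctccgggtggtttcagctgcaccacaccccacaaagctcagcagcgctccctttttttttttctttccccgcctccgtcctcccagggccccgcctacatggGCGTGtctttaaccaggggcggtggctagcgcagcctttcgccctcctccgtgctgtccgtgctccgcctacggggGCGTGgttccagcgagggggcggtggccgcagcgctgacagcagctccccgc
Slc2a1, Hk2 and this Pdk1 promoter held 2 matches each, and this Ldha promoter held 7, of which 4 lay inside 2 E-boxes. A match was found in 43.8% of all 32851 promoters in the table, and 3 or more in 8.93%. E-boxes occurred in 7.15%. Of the others, the first Hk1 promoter held none and the second 5, Pfkp held 4, Pfkl 1, Ldhb 1, the second Ldha promoter 2 and the second Pdk1 promoter none.

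The first comparison asked how the genes changed from fibroblasts to pluripotent cells. Slc2a3, Pdk1, Pfkp, Hk2 and Slc2a1 were higher in the mean of the 5 pluripotent groups than in MEFs, by 73.9-fold, 6.27-fold, 4.02-fold, 3.32-fold and 2.21-fold. Hk1 was 1.57-fold lower, and Pfkl, Ldha and Ldhb did not pass the test. Both transporters rose, Hk2 rose while Hk1 fell, Pfkp rose where Pfkl did not pass, and neither lactate dehydrogenase passed. In all, 6 of 9 passed, 66.7% (limma with Benjamini-Hochberg adjustment over 14632 genes, threshold 0.05), which is not above the 74.6% of all genes tested. The 5 that rose and the 1 that fell stand beside 42.1% of all genes higher and 32.5% lower. For 3 of the 9, Slc2a3, Pfkp and Pdk1, all 15 pluripotent libraries lay above all 3 MEF libraries, as did those of 25.9% of all genes, with 49.7% apart in either direction. The median change of all genes was 0.21 on the log2 scale and 0.03 under median-of-ratios scaling, a shift to be held against the smaller changes.

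**Figure D1:**
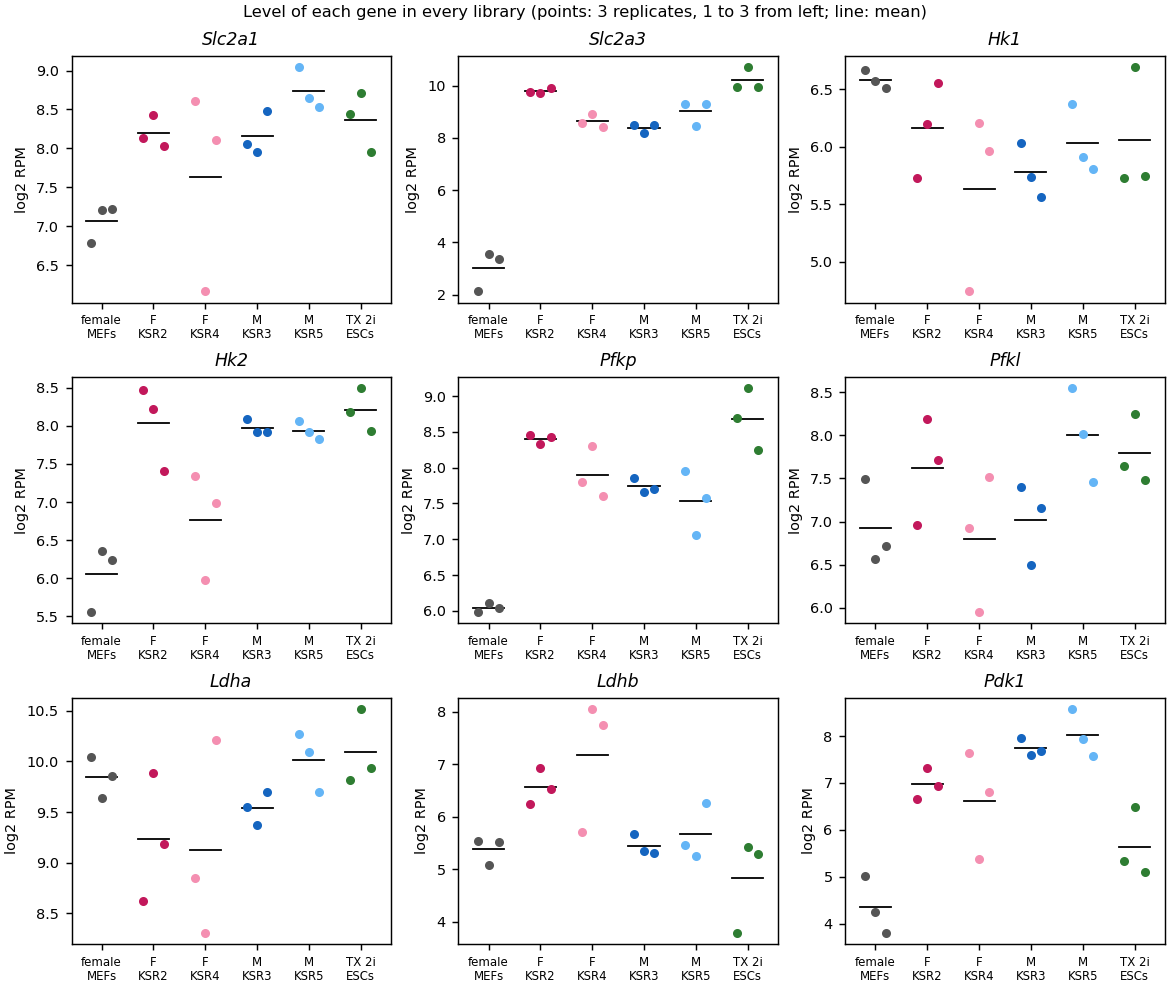
Log2 RPM of each of the 9 genes (vertical axis, 1 panel per gene, each with its own range) in every library by group (horizontal axis); points are the 3 replicates in order and lines are group means. The MEF points of Slc2a3, Pfkp and Pdk1 lie below all pluripotent points, and F KSR4 replicate 2 is the low point of Slc2a1 at 6.16.

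Slc2a3, the high-affinity transporter of neurons and of the early embryo, was nearly off in MEFs, at 2.12, 3.54 and 3.36 log2 RPM. The female lines held 9.75, 9.73 and 9.92 (F KSR2) and 8.57, 8.91 and 8.42 (F KSR4). The male lines held 8.51, 8.20 and 8.49 (M KSR3) and 9.32, 8.45 and 9.31 (M KSR5), and TX 2i ESCs 9.96, 10.71 and 9.95. No pluripotent library came near a MEF library, and the order of the groups rose from M KSR3, F KSR4 and M KSR5, which overlapped, to F KSR2 and then TX 2i ESCs, each above the group before it in every library. The log2 change against MEFs was 6.21 (SE 0.24, adjusted p = 3.7e-13 by limma), and by group it ran from 5.40 in M KSR3 to 7.20 in TX 2i ESCs. Per length the level went from 2.21 RPM per kb in MEFs to between 85.8 (M KSR3) and 308 (TX 2i ESCs). The gene lies on the minus strand at chr6:122727809-122801640 (GRCm38), 13176 bases from Nanog.

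Slc2a1, the broadly used basal transporter (chr4:119108711-119137330), was already well expressed in MEFs, at 6.79, 7.21 and 7.22 log2 RPM. F KSR2 held 8.13, 8.43 and 8.03 and F KSR4 8.61, 6.16 and 8.11. M KSR3 held 8.06, 7.95 and 8.48, M KSR5 9.04, 8.65 and 8.54, and TX 2i ESCs 8.44, 8.71 and 7.96. Of the 15 pluripotent libraries 14 lay above every MEF library, and the one below them was F KSR4 replicate 2. Against MEFs the log2 change was 1.15 (SE 0.32, adjusted p = 0.00375 by limma). It passed in 4 groups, from 1.09 in M KSR3 to 1.67 in M KSR5, and was 0.55 in F KSR4 (adjusted p = 0.247), or 1.29 without replicate 2 (adjusted p = 1.8e-04). In F KSR2 the call was lost without MEF replicate 1 (0.98, adjusted p = 0.0722) or F KSR2 replicate 2 (1.01, adjusted p = 0.073). In M KSR3 it was lost without MEF replicate 1 (0.95, adjusted p = 0.0808) or M KSR3 replicate 3 (0.93, adjusted p = 0.0946).

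Hk2, the inducible hexokinase of muscle, fat and growing cells (chr6:82725025-82774454, minus strand), stood at 5.56, 6.36 and 6.25 log2 RPM in MEFs. F KSR2 held 8.47, 8.23 and 7.41, F KSR4 7.34, 5.98 and 6.98, and M KSR3 8.09, 7.92 and 7.91. M KSR5 held 8.06, 7.92 and 7.83 and TX 2i ESCs 8.18, 8.50 and 7.93. All pluripotent libraries but F KSR4 replicate 2 exceeded the MEFs, and F KSR4 was the lowest of the 5 groups with no overlap with M KSR5, the next above it. The log2 change was 1.73 (SE 0.24, adjusted p = 4.4e-06 by limma). Against MEFs it was 1.89 to 2.15 in the other 4 groups and 0.72 in F KSR4, which missed the threshold (adjusted p = 0.0508). Without F KSR4 replicate 2 that last change was 1.11 (adjusted p = 0.00202), and it also passed without MEF replicate 2 (0.87, adjusted p = 0.0378) and without F KSR2 replicate 1 or 3.

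Hk1, the constitutive hexokinase (chr10:62268855-62379908, minus strand), held 6.67, 6.57 and 6.51 log2 RPM in MEFs and ranged from 4.74 to 6.69 with a median of 5.91 in the 15 pluripotent libraries. Of these, 13 lay below every MEF library and TX 2i ESC replicate 2 lay above them. The log2 change was -0.65 (SE 0.26, adjusted p = 0.029 by limma), and the call was lost without MEF replicate 1 (-0.61, adjusted p = 0.0905), 2 (-0.66, adjusted p = 0.07) or 3 (-0.69, adjusted p = 0.0576). By group Hk1 passed in F KSR4 (-0.95) and M KSR3 (-0.81). The first of these calls was lost without F KSR4 replicate 1 (-0.50, adjusted p = 0.134), and the second without any MEF library or M KSR3 replicate 2 or 3 (-0.84 to -0.70, adjusted p from 0.0601 to 0.119). In TX 2i ESCs Hk1 passed only without replicate 2 (-0.85, adjusted p = 0.039).

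Pfkp, the platelet-type phosphofructokinase, was tight in MEFs, at 5.98, 6.12 and 6.03 log2 RPM. F KSR2 held 8.46, 8.33 and 8.43, F KSR4 7.79, 8.31 and 7.61, and M KSR3 7.86, 7.66 and 7.71. M KSR5 held 7.96, 7.06 and 7.57 and TX 2i ESCs 8.69, 9.11 and 8.24. Every pluripotent library was above every MEF library, with F KSR2 and TX 2i ESCs the highest and overlapping each other. Its log2 change was 2.01 (SE 0.18, adjusted p = 1.7e-08 by limma), and ranged by group from 1.49 (M KSR5) up to 2.64 (TX 2i ESCs). Pfkp (chr13:6579768-6648777, minus strand) overlaps Pitrm1 on the other strand, whose identifier the file lists for it. The libraries were strand-specific.

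Pfkl, the liver-type subunit (chr10:77986947-78010083, minus strand), held 7.49, 6.56 and 6.72 log2 RPM in MEFs and 5.95 to 8.55, with a median of 7.48, in the pluripotent libraries. Its replicates were as far apart as its groups, and all groups next to each other in rank overlapped. Pooled, it changed by 0.52 on the log2 scale (SE 0.31, adjusted p = 0.136 by limma). Of the single groups only M KSR5 passed, at 1.08 (adjusted p = 0.024), and that call was lost without M KSR5 replicate 1 (0.81, adjusted p = 0.115) or 2 (1.08, adjusted p = 0.0532) and without MEF replicate 2 (0.90, adjusted p = 0.0851) or 3 (0.98, adjusted p = 0.0652). Pfkl passed in F KSR2 without its replicate 1 (1.03, adjusted p = 0.0444), and in TX 2i ESCs, where it was 0.87 (adjusted p = 0.0645), without MEF replicate 1 (1.15, adjusted p = 0.0263) or F KSR4 replicate 2 or 3.

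Ldha, the muscle-type subunit that favours lactate (chr7:46841475-46855627), was the most abundant of the 9 per length in every group, from 363 RPM per kb in F KSR2 to 632 in TX 2i ESCs, beside 525 in MEFs. MEFs held 10.05, 9.64 and 9.86 log2 RPM, and the pluripotent libraries ran from 8.31 to 10.52 with a median of 9.70. The log2 change was -0.25 (SE 0.29, adjusted p = 0.456 by limma), and no single group passed with all libraries. Ldha passed in F KSR2 without its replicate 2 (-0.94, adjusted p = 0.0482) and in F KSR4 without its replicate 3 (-1.27, adjusted p = 0.00215), libraries that held 9.88 and 10.21 where their sisters held 8.31 to 9.19.

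Ldhb, the heart-type subunit that favours pyruvate (chr6:142490249-142507957, minus strand), held 5.54, 5.08 and 5.51 log2 RPM in MEFs. F KSR2 held 6.25, 6.93 and 6.53 and F KSR4 5.71, 8.06 and 7.75. M KSR3 held 5.67, 5.34 and 5.32, M KSR5 5.45, 5.26 and 6.27, and TX 2i ESCs 3.79, 5.43 and 5.29. The female lines lay above the MEFs in all 6 libraries, while the male lines overlapped them. Pooled over the groups the log2 change was 0.56 (SE 0.38, adjusted p = 0.197 by limma), and it passed without F KSR4 replicate 1 (0.70, adjusted p = 0.0297). It was 1.19 in F KSR2 (adjusted p = 0.0418) and 1.79 in F KSR4 (adjusted p = 0.00412), or 2.52 without F KSR4 replicate 1 (adjusted p = 3.9e-05). The F KSR2 call was lost without any MEF library (1.04 to 1.27, adjusted p from 0.0551 to 0.11), without F KSR2 replicate 2 (1.01, adjusted p = 0.126) or 3 (1.21, adjusted p = 0.0739), and under median-of-ratios scaling (1.00, adjusted p = 0.0952).

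Pdk1 (chr2:71873224-71903858) was low in MEFs, at 5.01, 4.24 and 3.80 log2 RPM. F KSR2 held 6.67, 7.33 and 6.92, F KSR4 7.65, 5.38 and 6.81, and M KSR3 7.96, 7.59 and 7.69. M KSR5 held 8.58, 7.94 and 7.57 and TX 2i ESCs 5.33, 6.49 and 5.10. All 15 pluripotent libraries were above the MEFs, with TX 2i ESCs the lowest group and the male lines the highest, clear of F KSR2 but not of F KSR4. On average it rose by 2.65 on the log2 scale (SE 0.36, adjusted p = 3.6e-06 by limma). By group it was 3.68 for M KSR5 and 3.39 for M KSR3, then 2.62 for F KSR2 and 2.26 for F KSR4, or 2.88 for F KSR4 without replicate 2 (adjusted p = 1.2e-05), which puts it above F KSR2. For TX 2i ESCs it was 1.29 (adjusted p = 0.0216), a call lost without TX 2i ESC replicate 2 (0.86, adjusted p = 0.131) or MEF replicate 3 (1.01, adjusted p = 0.0901).

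In single groups, F KSR2 had 6 of the 9 genes higher than MEFs and none lower, beside 38% of all genes higher and 29% lower (67% called). M KSR5 also had 6 higher and none lower, beside 39% and 28.9% (67.9%), and TX 2i ESCs 5 and none, beside 37.5% and 29% (66.5%). M KSR3 had 5 higher and 1 lower, beside 39.4% and 28.2% (67.6%), and F KSR4 4 and 1, beside 34.6% and 31.2% (65.8%). These 5 comparisons share the MEF libraries, so they are not independent of each other.

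**Figure D2:**
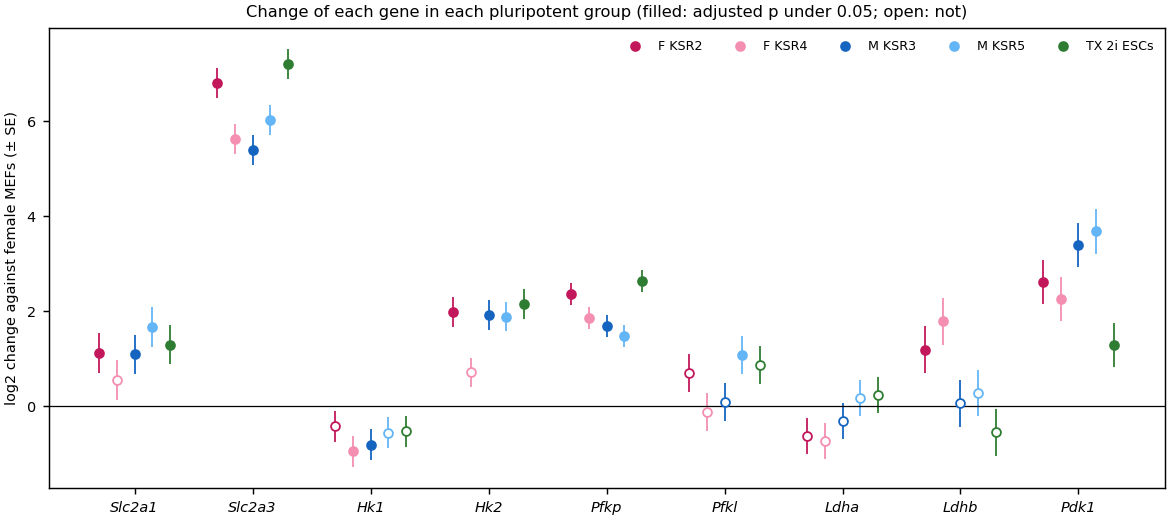
Log2 change against female MEFs (vertical axis, bars ± SE of the limma fit) of the 9 genes (horizontal axis) in the 5 pluripotent groups, filled where the adjusted p was under 0.05. Slc2a3 changed by 5.40 to 7.20, Hk1 lay below 0 in all groups, and Ldhb was above 0 by more than its SE in F KSR2 and F KSR4 alone.

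Within each step the balance of paralogs was followed as the log2 ratio in each library, as a description. Shares per length use the principal transcript, and another length would give other shares. That transcript has 3959 bases for Slc2a3 and 3260 for Slc2a1, where all exons together have 7245 and 3506. For Pfkp and Pfkl it has 4145 and 3730 bases, and all exons 13401 and 6675. Shares by all exons were not computed. For Slc2a3 to Slc2a1 it was -4.68, -3.67 and -3.85 in MEFs and between -0.19 and 2.75 in the 15 pluripotent libraries, with the highest in F KSR4 replicate 2. Group means were highest in TX 2i ESCs, at 1.84 ± 0.27 (SD, n = 3), and F KSR2, at 1.60 ± 0.30. M KSR3 had a mean of 0.24 ± 0.22 and M KSR5 one of 0.29 ± 0.48. The mean of F KSR4 was 1.01 ± 1.51, between these and F KSR2, but 0.14 without replicate 2, the lowest of the 5 groups. Per length, Slc2a1 made up 95.1% of the pair in MEFs, about as much as Slc2a3 in the male lines (50.7% and 49.9%) and the lesser part in F KSR2 (28.7%) and TX 2i ESCs (25.5%). In F KSR4 it made up 40.1%, or 52.5% without replicate 2.

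The Hk2 to Hk1 ratio was -1.12, -0.22 and -0.26 in MEFs, and ran from 0.86 to 2.74 in 14 pluripotent libraries. In F KSR4 replicate 2 it was -0.22, as in the MEFs. Hk1 made up 63.3% of the 5 hexokinases per length in MEFs and 22.2 to 40.1% in pluripotent groups, where Hk2 made up 58.2 to 74.7%. The ends at 40.1% and 58.2% are those of F KSR4, where the shares were 30% and 69.2% without replicate 2. Hk3, the hexokinase of blood cells, made up 5.54% in MEFs, with 109 to 151 reads against 0 or 1 elsewhere. Hkdc1, whose gene lies 3229 bases from Hk1, reached 6.69% in M KSR3, the line with the most primitive endoderm marker reads.

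Pfkp to Pfkl turned less cleanly, from -1.51, -0.45 and -0.69 in MEFs to between 0.10 and 2.36 in F KSR2, F KSR4, M KSR3 and TX 2i ESCs. M KSR5 stayed at -0.59, -0.96 and 0.12, overlapping the MEFs. Pfkp was 28% of the phosphofructokinase reads per length in MEFs, 32.3% in M KSR5 and 49.7 to 57.6% in the other groups. For Ldhb to Ldha the direction differed among groups: -4.50, -4.55 and -4.34 in MEFs, -3.14 to -0.25 in the 6 female KSR libraries, -4.83 to -3.43 in the 6 male ones, and -6.03, -5.09 and -4.64 in TX 2i ESCs. Ldhb was the lesser subunit per length in all libraries but F KSR4 replicate 2, where it held 1.14 times the Ldha level. It made up 5.78% of the lactate dehydrogenase reads per length in MEFs, 3.66% in TX 2i ESCs and 17.7% in F KSR2. The F KSR4 share of 28.7% rested on replicate 2 and was 16.5% without it.

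**Figure D3:**
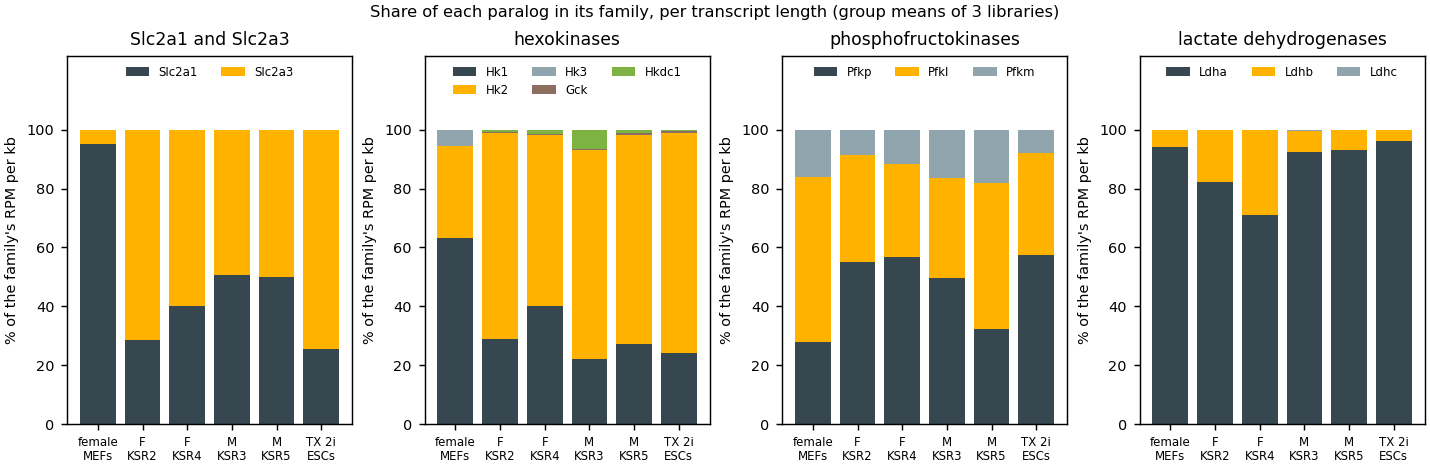
Share of each paralog (vertical axis, percent of the RPM per kb of its family, mean of 3 libraries) in the 6 groups (horizontal axis) for transporters, hexokinases, phosphofructokinases and lactate dehydrogenases. Slc2a1 went from 95.1% of its pair in MEFs to 25.5 to 50.7%, Hk1 from 63.3% to 22.2 to 40.1%, and Ldha kept at least 71.1% in all groups, the lowest being F KSR4, at 83.3% without replicate 2.

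The next comparison set the 4 KSR lines against TX 2i ESCs, which differ in medium, origin and line together. Slc2a3 and Pfkp were lower in the KSR lines, by 2.36-fold and 1.72-fold, and Pdk1 and Ldhb were higher, by 3.25-fold and 2.60-fold. These 4 of 9 passed, beside 23% of all genes tested, 11% higher and 12% lower. Slc2a3 lay lower in all 12 KSR libraries (8.20 to 9.92) than in the 3 of TX 2i ESCs (9.95 to 10.71), as did 6.49% of genes, with a log2 difference of -1.24 (SE 0.25, adjusted p = 0.00176 by limma). Pdk1 was higher in 11 of 12 KSR libraries than in any TX 2i library, with a log2 difference of 1.70 (SE 0.37, adjusted p = 0.00299 by limma). The exception was F KSR4 replicate 2.

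Pfkp was lower in 8 of 12 KSR libraries than in all of TX 2i ESCs, by -0.79 on the log2 scale (SE 0.18, adjusted p = 0.00474 by limma), and the call was lost without TX 2i ESC replicate 2 (-0.57, adjusted p = 0.0673). Ldhb differed by 1.38 (SE 0.39, adjusted p = 0.0169 by limma), a value that rested on TX 2i ESC replicate 1, at 3.79 log2 RPM. Without it the difference was 0.85 (adjusted p = 0.184). With the female lines alone against TX 2i ESCs, which removes the difference in sex, Pdk1 and Pfkp no longer passed (1.15, adjusted p = 0.122, and -0.53, adjusted p = 0.166). Slc2a1, Hk1, Hk2, Pfkl and Ldha differed by -0.61 to -0.15 and did not pass. Ldha passed without F KSR4 replicate 3 (-0.75, adjusted p = 0.0218).

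Female and male KSR lines were compared over 6 libraries each, and 1 of the 9 genes passed, beside 2.87% of 13609 genes tested, 1.59% higher and 1.28% lower in female lines. Ldhb was 2.50-fold higher in the female lines, with 5.71, 6.73 and 8.06 log2 RPM as the lowest, median and highest against 5.26, 5.40 and 6.27 in the male lines. The log2 difference was 1.32 (SE 0.33, adjusted p = 0.0418 by limma) and 4 of 6 female libraries lay above all male ones. This call was lost without any of 9 libraries (1.08 to 1.39, adjusted p from 0.0605 to 0.101): replicates 2 and 3 of F KSR2 and of F KSR4, the 3 of M KSR3, and replicates 1 and 2 of M KSR5. It was also lost with no filter (adjusted p = 0.121) and with line as a random effect (adjusted p = 0.131). Each sex is only 2 lines from 1 embryo, so sex and donor embryo cannot be told apart. Pdk1 held 5.38, 6.87 and 7.65 log2 RPM in female and 7.57, 7.82 and 8.58 in male libraries, and its log2 difference of -1.10 (SE 0.30, adjusted p = 0.0593 by limma) missed the threshold. It passed without F KSR4 replicate 1 (-1.27, adjusted p = 0.0282) or 2 (-0.81, adjusted p = 0.0451). The other 7 genes differed by -0.60 to 0.52, with adjusted p from 0.151 to 0.992. All genes called split into 216 higher and 174 lower in female lines, 55.4% higher, and 72.1% higher under median-of-ratios scaling.

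Among the 4 KSR line means, Slc2a3 and Hk2 varied beyond their replicates, 2 of 9 beside 14.1% of all genes. Slc2a3 spanned 1.40 on the log2 scale from M KSR3 to F KSR2 (adjusted p = 0.0226, moderated F test of limma). This call was lost without any F KSR2 library or without M KSR3 replicate 2 or 3 (spans of 1.30 to 1.44, adjusted p from 0.0547 to 0.07). Hk2 spanned 1.27 from F KSR4 to F KSR2 (adjusted p = 0.0209), a call that rested on F KSR4 replicate 2 (0.87 without it, adjusted p = 0.0889). The others spanned 0.52 (Hk1) to 1.73 (Ldhb, adjusted p = 0.0567). Ldhb passed without F KSR4 replicate 1 (2.46, adjusted p = 0.00155), and Slc2a1, Pdk1 and Pfkp also passed without that library. Ldhb passed too without M KSR5 replicate 3 or TX 2i ESC replicate 1, Pfkl and Ldha without F KSR4 replicate 3, and Pfkp without any F KSR4 library, M KSR5 replicate 1 or TX 2i ESC replicate 2 or 3.

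Reads that cover a known difference between the BL6 and CAST genomes tell which parental copy a transcript came from, and 17.7 to 19.9% of the reads on genes did so. In these crosses the BL6 copy is the maternal one. Slc2a3, Hk2 and Ldhb, which all lie on chromosome 6, had almost only maternal reads in F KSR2. Slc2a3 had 2636, 2690 and 2766 maternal and 11, 17 and 65 paternal reads in its libraries, Hk2 2370, 2080 and 1010 against 22, 36 and 59, and Ldhb 236, 444 and 262 against 0, 8 and 8. The maternal shares were 98.9% ± 1.03, 97.3% ± 2.46 and 98.4% ± 1.49 (SD, n = 3). The 0 of 236 paternal reads in replicate 1 allow a maternal share as low as 98.4% by the 95% Wilson interval, which covers counting error only.

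The rest of chromosome 6 went with them: over its genes the maternal share was 96.8% ± 3.13 in F KSR2 and 49.3 to 54% in the other 5 groups. In those groups Hk2 had a share of 56.1 to 59.7%, Ldhb 46.3 to 60.9%, and Slc2a3 65 to 77%. The MEF value of Slc2a3, 71.1%, rests on 12 to 41 allelic reads a library, and its TX 2i ESC value of 65% on 2642 to 5144. Slc2a3 thus had more maternal than paternal reads in every group, and by the widest margin in F KSR2. In F KSR2 maternal reads of Slc2a3 came to 175 ± 10.7 per 1000000 reads on genes and paternal reads to 2.05 ± 2.02. These were 148 ± 41.3 and 81 ± 29.6 in TX 2i ESCs, and 46.9 ± 3.49 and 17.9 ± 3.64 in M KSR3. For Hk2, maternal reads came to 118 ± 45.4 in F KSR2 and 64.3 ± 5.25 in M KSR3, where paternal reads came to 43.4 ± 3.88. The total levels of Hk2 in these 2 lines overlapped, although its allelic reads were nearly all maternal in the first and of both parents in the second. The number of copies of chromosome 6 in F KSR2 was not tested here. The paper reports maternal uniparental disomy of that chromosome in this line. Maternal reads in F KSR2 may therefore come from more than 1 copy of each gene.

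On chromosome 4, Slc2a1 had maternal shares of 44.7% ± 2.89 in MEFs, 53.1 to 57.8% in the KSR lines and 39.8% ± 7.25 in TX 2i ESCs, with 33%, 39% and 47.4% in its 3 libraries. The chromosome as a whole was at 32.4% ± 4.88 in TX 2i ESCs, 43.4% ± 0.879 in F KSR2 and 51.2 to 53.1% in the others. Group means of Hk1, Pfkp, Pfkl, Ldha and Pdk1 stayed between 39.1 and 56.7%. For these 5 genes no group was read from 1 parental genome alone.

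**Figure D4:**
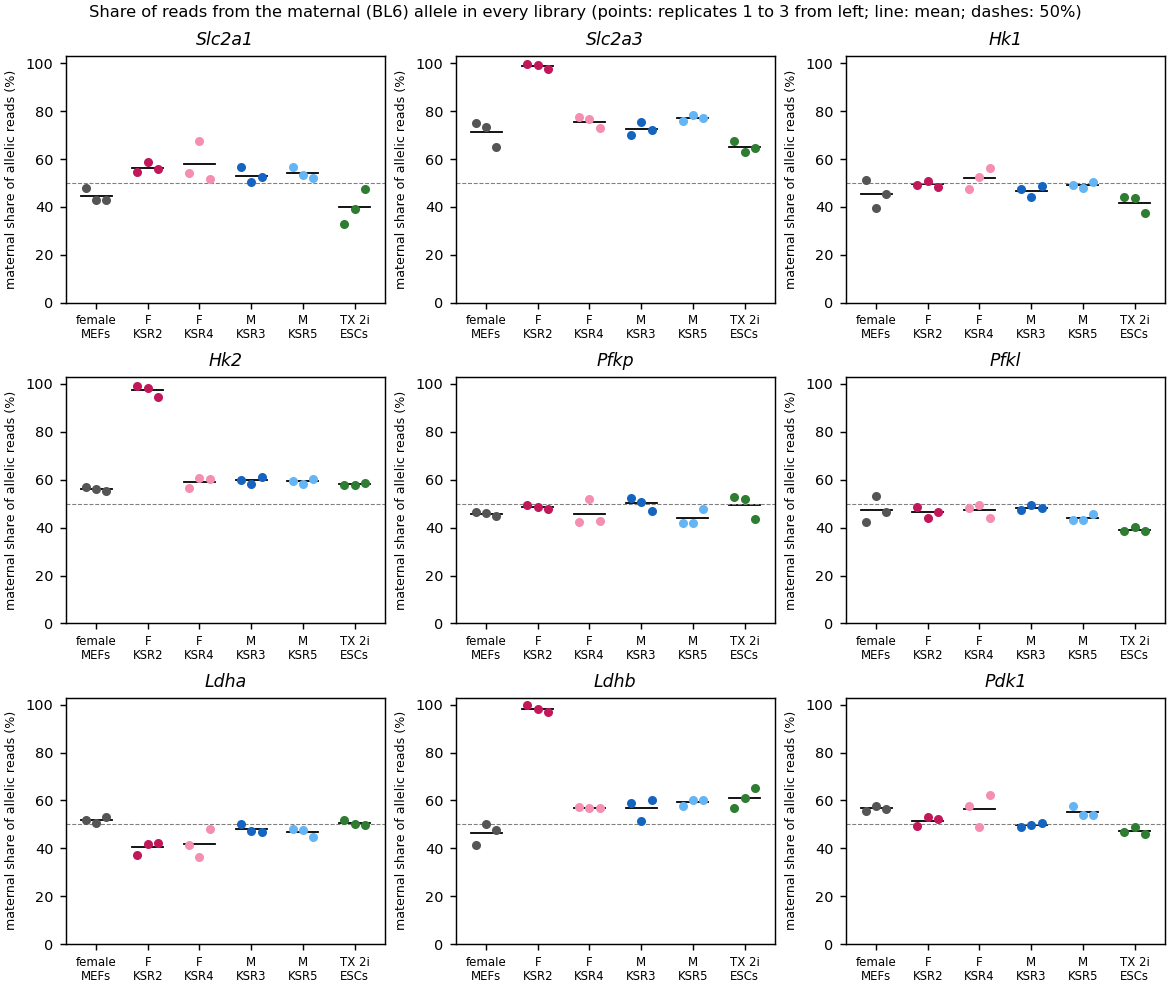
Share of allelic reads from the maternal BL6 copy (vertical axis, percent) for the 9 genes in every library by group (horizontal axis); points are replicates, lines are group means and dashes mark 50%. F KSR2 stands at 94.5 to 100% for Slc2a3, Hk2 and Ldhb, all on chromosome 6, and near the other groups for the rest.

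Across the 15 pluripotent libraries some of the 9 genes moved together. The points share 5 lines, so these are descriptions. Slc2a3 and Pfkp had a Pearson r of 0.85 and a Spearman rho of 0.85 (0.88 for r without F KSR4 replicate 2), and Pfkl and Ldha 0.81 and 0.81. Slc2a1 and Hk2 had an r of 0.74 that fell to 0.22 without that 1 library. Of 9014 genes above a log2 value of 2 in all 15 libraries, the most like in pattern was Mkrn1 for Pdk1 (r 0.968, rho 0.929), Cmtm6 for Slc2a3 (0.958, 0.939), and Fam162a for Ldha (0.958, 0.879). For Slc2a1 it was Ptbp1 (0.908, 0.743), and for Hk2 it was Cpsf3 (0.915, 0.850), values that were 0.725 and 0.811 for r without F KSR4 replicate 2. For Pfkp it was Phka2 (0.919, 0.857), for Pfkl Nmral1 (0.917, 0.918), for Hk1 Sgsm1 (0.889, 0.832) and for Ldhb Chchd10 (0.855, 0.879).

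Around these 9, 98 other genes of glucose metabolism were listed by role, of which 86 had enough signal to test. From MEFs to the pluripotent groups 42 were higher and 23 lower, 75.6% in all beside 74.6% of all genes (42.1% higher and 32.5% lower), with a median log2 change of 0.45. Of 20 hexokinases and glycolytic enzymes tested, 13 were higher and 3 lower (median 0.71). Gapdh rose by 1.35 (adjusted p = 7.2e-05) and Pkm, a pyruvate kinase gene whose isoforms were not separated, by 0.68 (adjusted p = 0.00345), both by limma. Pfkm, the muscle phosphofructokinase, rose by 0.72 (adjusted p = 0.00596 by limma), a call lost without MEF replicate 3 (0.58, adjusted p = 0.0558). Pgam2 rose by 2.80, and Pklr had 0 reads in MEFs and 6 to 25 in the pluripotent libraries. Of 7 transporters, 2 were higher and 3 lower: Slc5a1, a sodium-coupled carrier, had 0 reads in MEFs and 106 to 473 elsewhere, and the fructose carrier Slc2a5 0 or 1 and 20 to 99. Slc2a10 had 294 to 336 in MEFs and 0 to 9 elsewhere, and Slc2a6 40 to 111 and 0 to 11. The third lower one, Slc2a9, was outside the naming rule and is named after its values were seen.

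Around pyruvate, the lactate carrier Slc16a1 rose by 1.73 on the log2 scale (adjusted p = 3.4e-09 by limma) and Slc16a7 had 43 to 84 reads in MEFs and 0 to 9 elsewhere. Slc16a3, the lactate exporter of glycolytic tissue, differed by 0.05 (adjusted p = 0.929). In the pyruvate dehydrogenase list 6 of 10 were higher and 2 lower, beside 42.1% and 32.5% of all genes, so the share called (80%) was near that of all genes (74.6%). Of these, the subunits Pdhb (1.61, adjusted p = 1.7e-07) and Pdha1 (0.80, adjusted p = 3.4e-06) rose with Pdk1, while the kinase Pdk2 fell by 1.56 (adjusted p = 0.00219) and the phosphatase Pdp1 fell by 1.18 (adjusted p = 0.00023). The kinase Pdk3 rose by 0.43 (adjusted p = 0.00741, lost without MEF replicate 2 at 0.33 and adjusted p = 0.0913, and under median-of-ratios scaling at 0.25 and adjusted p = 0.0951), and Pdk4 differed by 0.08 (adjusted p = 0.894). The 4 pyruvate dehydrogenase kinases thus did not move alike between MEFs and pluripotent cells.

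Among 9 regulators tested, 6 were higher and none lower, beside 42.1% and 32.5% of all genes. Mycn rose by 6.69 (adjusted p = 1.2e-12 by limma), Lin28a had 0 reads in MEFs and 699 to 5964 elsewhere, Lin28b 0 to 7 and 218 to 889, and Esrrb 0 or 1 and 5335 to 12373. Myc differed by -1.34 (adjusted p = 0.107) and Txnip, a brake on glucose uptake, by 0.46 (adjusted p = 0.335). In F KSR4 replicate 2, where Slc2a1 and Hk2 were lowest, Txnip was at its highest, 9.73 log2 RPM, and Myc at its lowest, 1.32, of the 15 pluripotent libraries; their part in the result was not tested. Reads of Myc from the inducible cassette and from the gene itself cannot be told apart here.

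**Figure D5:**
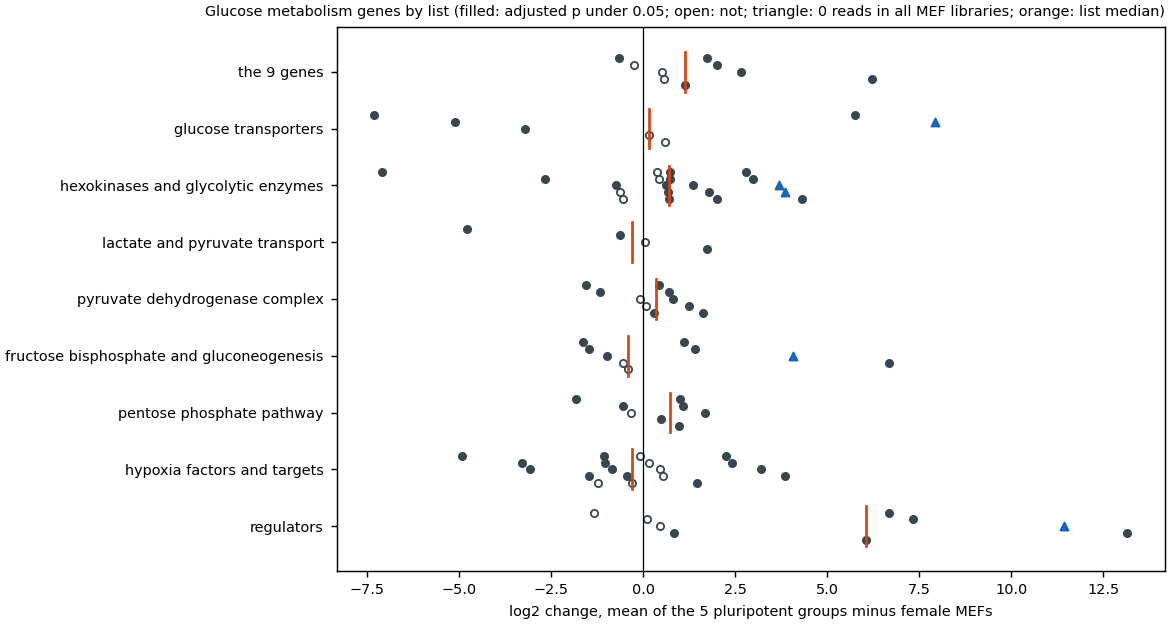
Log2 change of each gene, mean of the 5 pluripotent groups minus female MEFs (horizontal axis), for the 9 genes and 8 lists of glucose metabolism (vertical axis), filled where the adjusted p was under 0.05, with the list median in orange. Triangles had 0 reads in all MEF libraries, so their fitted value is no measured fold. The medians were 0.71 for glycolytic enzymes and -0.30 for hypoxia factors and targets.

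Against TX 2i ESCs the KSR lines had 7 of the 86 list genes higher and 17 lower, 27.9% beside 23% of all genes (11% higher and 12% lower). Without TX 2i ESC replicate 2 the counts were 8 and 5, and with the female lines alone 3 and 6. Of the glycolytic enzymes 2 were higher, the muscle forms Eno3 (2.55, adjusted p = 5.5e-05 by limma) and Pgam2 (1.95, adjusted p = 0.00151, lost with the female lines alone at 1.49 and adjusted p = 0.102), and 7 lower, with a median of -0.53 for the 20 tested, or -0.63 with a gene at 0 reads set at its bound. Pkm was among the lower at -0.58 (adjusted p = 0.037), and Slc16a1 at -0.42 (adjusted p = 0.0349). Both calls were lost without any TX 2i ESC library (Pkm -0.65 to -0.46, adjusted p from 0.0749 to 0.202; Slc16a1 -0.44 to -0.41, adjusted p from 0.0963 to 0.119). The Pkm call was also lost without M KSR3 replicate 2 or M KSR5 replicate 2 or 3 (-0.57 to -0.56, adjusted p from 0.0516 to 0.0589), and that of Slc16a1 without M KSR3 replicate 2 or 3 (-0.43 to -0.40, adjusted p from 0.0501 to 0.0564). Myc was higher by 2.44 (adjusted p = 0.0259), lost without TX 2i ESC replicate 2 (1.81, adjusted p = 0.185) or 3 (2.37, adjusted p = 0.0964), and at 3.13 without replicate 1 (adjusted p = 0.0225).

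Between female and male KSR lines 6 of 78 list genes tested passed, beside 2.87% of all genes. With line as a random effect or with no filter 1 passed, Pdk3, and on means of lines none did. Fewer also passed without F KSR2 replicate 2 (1) or 3 (3), M KSR3 replicate 1 (2), 2 (1) or 3 (1), or M KSR5 replicate 2 (3). The X-linked Pdk3 (0.82, adjusted p = 0.0109 by limma) and Pdha1 (0.49, adjusted p = 0.0454) were higher in all female than in all male libraries, as were 1.33% of genes. Eno3, H6pd, Epas1 and P4ha2 were lower, and are named after their values were seen. Pdha1 lost its call without any of 9 libraries (0.44 to 0.51, adjusted p from 0.0573 to 0.123).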

How the data were processed

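RNA-seq of 18 libraries, 3 biological replicates in each of 6 groups, was used. Per the study's methods and processing notes, the authors trimmed strand-specific poly(A) reads with Trim Galore 0.6.1, aligned them to GRCm38 with HISAT2 2.1.0 and counted them on genes in SeqMonk, where they also split reads by parental genome. They used edgeR for female against male lines, which was not repeated because the deposited values are log2 RPM, not counts. Of 72 deposited columns, 4 per library, 54 were used (all reads and those of each parental genome), and 18, of reads that cover no informative difference, were not. Values came out as whole reads within 0.05 of a read for 99.97 to 100.0% of the genes of a library, with 0 reads held at 0.9 reads. Depth was 13183036 to 17921280 reads on genes.

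The deposited log2 values were fitted with limma 3.58.1 (R 4.3.3), with an intensity trend, keeping genes that exceeded 0 in 3 or more libraries, on all 18 libraries (12 for female against male), without covariates, and p-values were adjusted by Benjamini-Hochberg over all genes tested. A call was an adjusted p under 0.05. The comparisons planned for counts were thus run on log2 values. The RPM per kb used the length of the principal GENCODE transcript. Maternal shares used at least 5 allelic reads per library. Likeness was Pearson's r over the pluripotent libraries, with the first-ranked gene given. List genes were named where their libraries did not overlap, at most 4 per list by size of change, besides 15 fixed names.

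The 9 genes and the lists were chosen with earlier results of these data known. P-values measure the spread between replicates of single lines or embryos, except between sexes. There the libraries of both lines of a sex were pooled, so their spread mixes differences between lines and between replicates. On simulated data for pluripotent against MEF groups, 96% of 100 genes changed 2-fold were recovered among 14185, with 6 false calls. For KSR lines against TX 2i ESCs it was 90% of 100 among 14201, with 7. For female against male lines it was 95% among 14083, with 20, and for the F test among lines 69% among 14180, with 8. All simulated libraries shared a single fixed dispersion, without differences between lines, and only genes with enough reads were changed. These rates therefore leave out the spread between lines and the wider spread within F KSR4. Alternatives were another scaling, filter and pseudocount, limma-voom on the recovered reads, a replicate block, other sets of groups, and each library left out; a fit without F KSR4 replicate 2 and M KSR5 replicate 3 was added after seeing the data. Methylation amplicons were not used here.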

Additional observations from a re-analysis of the deposited data

Results flagged for a closer look

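Slc2a1 in F KSR4 replicate 2 was flagged because it lay far from the other 5 female KSR libraries: it held 6.16 log2 RPM where the next held 8.03, a gap of 0.764 of the whole range, above Dixon's critical value for 6 samples. It was the only flag among 36 such checks, made at each end of each set, and chance flags about 1 in 20 sets of 6. The 6 libraries are replicates of 2 lines, not independent draws as the check assumes. The same library held the lowest Hk2, Pfkl and Ldha and the highest Ldhb of the 15 pluripotent libraries.

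Differences between groups that passed their own test were flagged too. Between KSR lines and TX 2i ESCs these were Pdk1 (log2 difference 1.70), Slc2a3 (-1.24), Ldhb (1.38) and Pfkp (-0.79). Between female and male KSR lines it was Ldhb (1.32). Among the 4 KSR lines they were Hk2 (a span of 1.27) and Slc2a3 (1.40).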

How the results depend on the processing

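Over the 9 genes, 1321 of 1404 values kept direction and call when 1 library was left out, and 590 of 621 under the other planned settings, with 15 calls lost, 10 gained and 6 reversals of values that had not passed. Of the added fits, 71 of 81 kept both. Calls between MEFs and pluripotent groups for Slc2a3, Hk2, Pfkp and Pdk1 held under every setting run for the pooled comparison, as did Slc2a1. That of Hk1 was lost without a filter (adjusted p = 0.0538) or with mitochondrial and the 50 most abundant genes out of the total (adjusted p = 0.0554), besides the left-out MEF libraries. The cause of these changes was not tested.

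Under median-of-ratios scaling these values changed sign: pooled Pdk4 -0.11 and Slc16a3 -0.13, M KSR3 Pfkl -0.15 and Ldhb -0.18 and M KSR5 Ldha -0.041 against MEFs, and Hk1 between sexes 0.094 (0.033 with the reduced total, 0.013 by limma-voom). Without both libraries that stand apart, pooled Pdk4 was -0.046, F KSR4 Pfkl 0.29, M KSR5 Ldhb -0.024 and Slc2a1 against TX 2i ESCs 0.021, and pooled Pfkl passed (0.66, adjusted p = 0.0302). With 1 library left out, ranges that crossed 0 were, against MEFs, Pdk4 -0.0895 to 0.22, Slc16a3 -0.18 to 0.40, F KSR4 Pfkl -0.49 to 0.29, M KSR3 Pfkl -0.10 to 0.37 and Ldhb -0.0886 to 0.14, and M KSR5 Ldhb -0.024 to 0.48. Against TX 2i ESCs they were Hk1 -0.32 to 0.16, Gapdh -0.025 to 0.25, Hif1a -0.017 to 0.14 and Pdk4 -0.23 to 0.53, and between sexes Hk1 -0.14 to 0.22.

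Counts moved by over 1.5 times as follows. With female lines only against TX 2i ESCs, 2 of the 9 genes, 9 list genes and 1155 of all genes passed, and Pfkm was -0.13. With 1 library left out, list genes ran from 13 to 32 and all genes from 2125 to 4317. Between sexes, no filter left 0 of the 9, 1 list gene and 232 genes, the fit of all 18 libraries 2, 11 and 1523, line as a random effect 0, 1 and 138, and means of lines 0, 0 and 4, while 2 and 665 passed without both libraries that stand apart. With 1 library left out these were 0 to 2, 1 to 8 and 187 to 521. Among lines, no filter left 1 of the 9 and 10 list genes, fitting the KSR lines alone 8 list genes and 1036 genes, and leaving out both libraries 26 and 3199. With 1 left out they were 1 to 6, 8 to 29 and 995 to 3947.

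Maternal shares taken from the deposited log2 values, in which 0 and low reads are held up and each genome is scaled to its own total, moved by more than 1 SD for Slc2a1 (MEFs 40.6%, F KSR2 50.1%, M KSR3 44.3%, M KSR5 47.5%), Slc2a3 (F KSR4 70.4%, M KSR3 65%, M KSR5 72.1%), Hk2 (MEFs 51.9%, F KSR4 52.7%, M KSR3 51%, M KSR5 52.9%, TX 2i ESCs 56%) and Ldhb (F KSR4 50.3%, M KSR3 48.1%, M KSR5 52.9%).

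The replicate numbers did not pair the samples over the groups compared: 13 of 45 correlations of same-numbered deviations were over 0.1 (-0.197 to 0.382), all 3 were over 0.1 in 1 of 15 pairs of groups, F KSR2 and TX 2i ESCs (0.17 to 0.252), and 9 libraries correlated best with their own number. With the replicate number as a block, 11047 genes passed between pluripotent groups and MEFs, 3546 against TX 2i ESCs, 314 between sexes and 2443 among lines. Ldhb passed among lines (adjusted p = 0.0348), Pdha1 lost its call between sexes, and no other call of a named gene changed. Depth limits Slc2a3 in MEFs most, with 71 reads in 1 library.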

Other observations

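Of 19 hypoxia factors and targets tested between pluripotent groups and MEFs, 5 were higher and 8 lower, beside 42.1% and 32.5% of all genes, with a median log2 change of -0.30 beside 0.21 for all genes. The factor Hif1a fell by 1.04 (adjusted p = 2.7e-05 by limma), while its relatives Epas1 and Hif3a rose by 3.20 (adjusted p = 8.5e-11) and 3.84 (adjusted p = 2.1e-06). Adm, the vasodilator adrenomedullin, fell by 4.91 and the collagen prolyl hydroxylase P4ha2 by 3.28. Ankrd37 (2.42), Kdm3a (2.25) and Egln3 (1.46) were the other higher genes of this list, and are named after their values were seen. Slc2a1, Hk2 and Pdk1, whose promoters are printed above, rose over the same comparison. Ldha, also printed there, did not pass (-0.25, adjusted p = 0.456 by limma). Of the other members, Slc2a3 and Pfkp rose, Hk1 fell, and Pfkl and Ldhb did not pass.

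In the pentose phosphate pathway, which branches from glycolysis after hexokinase, 5 of 8 genes were higher and 2 lower, with a median of 0.72, beside 42.1% of all genes higher and 32.5% lower. Tkt (transketolase) rose by 1.69 (adjusted p = 1.3e-09 by limma), Rpe by 1.09 and Taldo1 by 0.99, while H6pd, the enzyme of the endoplasmic reticulum, fell by 1.84. Of 9 genes of fructose bisphosphate turnover and gluconeogenesis, 4 were higher and 3 lower, 77.8% called beside 74.6% of all genes. Fbp2 had 0 or 1 read in MEFs and 32 to 299 elsewhere, Pfkfb1 rose by 1.41, and Pfkfb4 and G6pc3 (-0.98) fell. Against TX 2i ESCs the KSR lines had less Pfkfb3 (-1.35, adjusted p = 0.00154) and Pck2 (-1.69, adjusted p = 0.00065). They had more Fbp1 (3.04, adjusted p = 0.00131) and Lin28a (1.99, adjusted p = 2.6e-05), all by limma. The libraries did not overlap for any of these genes. The Fbp1 change was 2.24 without TX 2i ESC replicate 1 and 3.81 without replicate 3. Fbp1 was near the floor, with means of -2.7 log2 RPM in TX 2i ESCs and 0.33 in the KSR lines. As 1 read was worth -4.29 to -3.89, the size of its change is uncertain.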
